A study of Mus musculus with 15 samples.

Results

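The second day of RANKL treatment was set against the first in small-intestinal epithelium of wild-type BALB/c mice, 10 weeks of age. Each of these groups had 3 arrays, so 6 of the 15 arrays of the series enter the comparison by their labelled time point. The mice of both groups received a GST-RANKL fusion protein by 2 intraperitoneal injections a day, for 2 days in the one group and for 1 day in the other. The further groups, 3 arrays each, were 3 days of RANKL, 4 days of RANKL and controls without RANKL, and they entered the fit only through the estimate of the spread. Mice injected with GST or with vehicle are not among the groups analysed. Epithelium was peeled off after 10 min in 30 mM EDTA, so each array holds the bulk RNA of all cells that came away. In such samples fewer cells of a type and less RNA per cell cannot be told apart. Whether arrays of a group stand for separate mice is not stated, and the p-values then cover only the spread among these arrays, which may be technical.

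RANKL is a cytokine of the TNF family. It binds the receptor RANK (gene Tnfrsf11a) on epithelial cells, and RANK signals through TRAF adaptors to the classical NF-kB pathway and to the alternative one, in which the products of Nfkb2 and Relb act together. In the follicle-associated epithelium over lymphoid tissue this signal turns precursors into M cells, which carry particles from the lumen to the lymphoid cells below. The transcription factor Spib is an early step in that programme, and Gp2, a surface receptor that binds type 1 fimbriae of bacteria, marks mature M cells. RANKL given systemically is known to produce M cells on villi outside the lymphoid tissue. The comparison asks which genes differ once treatment has run for the second day.

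The 19 epithelial markers were bright, with median log2 intensities of 12.36 on day 2 and 12.41 on day 1, and none was called. The median deposited intensity was 150.0 to 154.1 on day 2 arrays and 151.0 to 166.9 on day 1 arrays. Day 1 replicate 2 stood apart from the rest, with a log2 interquartile range of 1.95 against 2.28 to 2.39 on the other 5 arrays of this comparison. The 3 Y chromosome genes measured read 4.88 to 5.50 over the series beside high Xist, which gives the scale of the background. Lists of intraepithelial lymphocyte (20 genes), B and plasma cell (18), stromal (22), and erythroid and pancreatic acinar genes (9) had no called member. At an unadjusted p under 0.05, 1 B and plasma cell gene and 1 stromal gene were lower and none of these 2 lists was higher. Over all genes 2.86% were lower and 4.11% higher at that level. Of the 19 epithelial markers 2 were lower and none was higher.

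Of 19938 genes, 40 were called at an adjusted p under 0.05 (limma, Benjamini-Hochberg over all genes), a background of 0.201%. The 29 that were higher on day 2 made up 0.145% of genes and the 11 that were lower 0.0552%. At least a doubling was seen in 12 of the rises, and 1 fall, Mal, was of that size. In all 40 called genes the 3 day 2 arrays lay on 1 side of the 3 day 1 arrays, as they did in 10% of all genes. With the replicate number as a block the count was 69, of which 50 were higher and 19 lower, and 38 of the 40 were among them. With the values as deposited the count was 17 (14 higher, 3 lower), and with arrays centred on their medians it was 19, of which 18 were higher and 1 lower. Under neither of these scalings were 23 of the 40 called: the rises Cxcl9, Ly6d, Tnfaip2, Apol7a, D5Ertd579e, Aqp4, Csf2rb, Rassf2, Ly75, Egln3, Cst6, Mmp28, Mocos, Smpd2 and a predicted gene, and the falls Mal, Cdk6, Reep1, Hsd3b7, Nfkb2, Fam234b, Bsdc1 and Nfib. The count was also smaller without single arrays: 7 without day 2 replicate 1, 9 without day 1 replicate 3, 11 without day 1 replicate 2, 14 without day 2 replicate 3, 17 without day 2 replicate 2, 23 without day 3 replicate 2, 25 without day 1 replicate 1, 25 without control replicate 3 and 26 without day 4 replicate 1. Gp2, Hamp, Plekhs1, C4bp, Clca2 and Tagln2 were called without each of the 15 arrays in turn. Of these, Gp2 was also called under each of the 11 other settings tried, and Hamp and Plekhs1 under the 10 in which they were tested, since both fall among the dimmest 40% of genes.

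**Figure D1:**
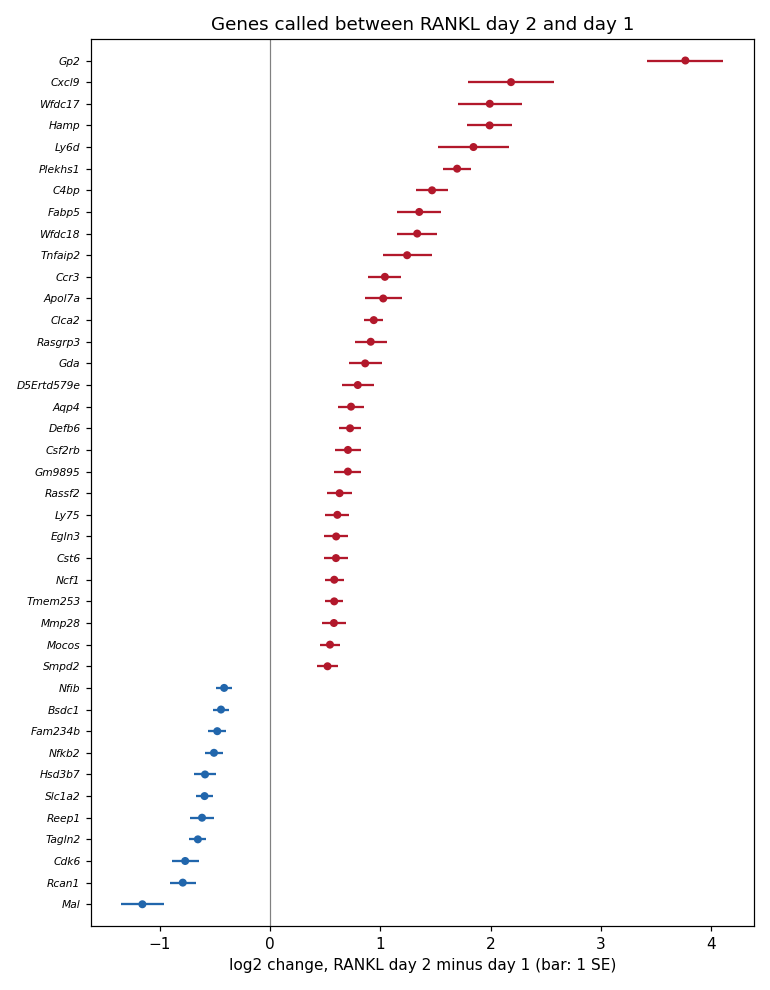
Log2 change on day 2 relative to day 1 for the 40 called genes, as a point with a bar of 1 SE (3 arrays per group). Red points are the 29 rises and blue points the 11 falls; Gp2 lies farthest to the right at 3.77, and only Mal among the falls is beyond -1.

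The largest rise was in Gp2, the M cell receptor described above. Its log2 intensities were 9.78, 10.00 and 9.59 on day 2 arrays, against 5.80, 6.02 and 6.25 on day 1 arrays. The day 1 values overlapped the controls, 5.94 to 6.22, and lay close to the background, well below every day 2 array. The difference was 3.77 ± 0.34 in log2 units (SE, 3 arrays in each group), or 13.6-fold, with an adjusted p of 0.000335. Means of 10.99 on day 3 and 9.36 on day 4 followed. The 250 bases before the RefSeq start of Gp2 (GRCm38.p6, chr7:119459273-119459522, minus strand) are shown because this gene had the largest change. The window held no match on either strand to TTCNNNGAA, the palindrome that STAT dimers bind, to the interferon response repeat (GAAA, any 2 bases, GAAA), which interferon regulatory factors bind, or to the NF-kB consensus.
Gp2: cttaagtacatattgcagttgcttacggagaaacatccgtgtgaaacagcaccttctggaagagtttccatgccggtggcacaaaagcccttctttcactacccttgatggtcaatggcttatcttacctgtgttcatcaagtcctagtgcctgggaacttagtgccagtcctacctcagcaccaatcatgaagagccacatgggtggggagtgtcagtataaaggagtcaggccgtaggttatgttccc

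Gp2 stood far above the other M cell markers in size of change. Of 31 markers measured, 3 were called higher on day 2, Gp2, Fabp5 and Tnfaip2, and none lower, against 0.145% and 0.0552% of all genes. At an unadjusted p under 0.05, 16 were higher and 4 lower, against 4.11% and 2.86% of all genes. The median change was 0.37, against -0.01 over all genes, and the summed intensity of the list was 56596 to 60496 on day 2 and 49813 to 53959 on day 1, with 20314 to 20854 in controls. The list was written with results of these arrays known, so its direction is no independent evidence. Only Gp2 of the list was called without day 1 replicate 2, without day 1 replicate 3, without day 2 replicate 1 or without day 2 replicate 3. With the replicate block a further marker, the transcription factor gene Sox8, named after its value was seen, was called, with a change of 0.50 ± 0.10 and an adjusted p of 0.0456 (0.0745 without the block).

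**Figure D2:**
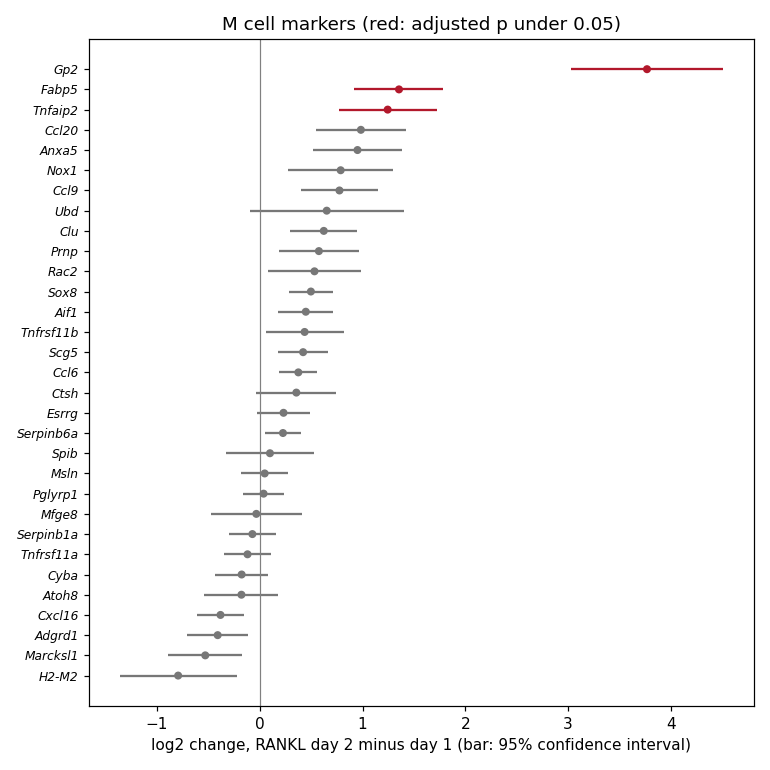
Log2 change on day 2 relative to day 1 for the 31 M cell markers measured, with 95% confidence intervals. The 3 called genes are red, with Gp2 far above the rest at 3.77; markers with intervals wholly below 0 include H2-M2 and Marcksl1, and the interval of Spib spans 0.

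Tnfaip2, a cytoplasmic protein with a role in forming membrane nanotubes, had log2 intensities of 9.41, 9.48 and 9.86 on day 2, against 8.76, 7.86 and 8.39 on day 1. The controls were at 6.59 to 7.11, so all 6 RANKL arrays were above them and the day 2 arrays were the higher ones. The change was 1.24 ± 0.22 (2.37-fold, adjusted p = 0.0427). Fabp5, a fatty acid binding protein, read 9.68, 9.46 and 10.19 on day 2, against 8.75, 8.12 and 8.39 on day 1 and 7.25 to 7.29 in controls. It rose by 1.35 ± 0.20 (2.56-fold, adjusted p = 0.0179), and its other probe set gave 1.38. Leaving out 1 array took the adjusted p as high as 0.189 for Tnfaip2 (without day 2 replicate 3) and 0.0761 for Fabp5 (without day 1 replicate 3).

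Several markers that distinguish M cells were not called. Spib read 11.19, 11.22 and 11.54 on day 2 and 11.58, 10.98 and 11.09 on day 1. The arrays overlapped and the change was 0.10, with a 95% confidence interval of -0.33 to 0.53. H2-M2, a nonclassical MHC class I gene, read 10.53, 10.55 and 10.60 on day 2 and 11.28, 11.70 and 11.08 on day 1, with all day 2 arrays lower (-0.80, interval -1.37 to -0.22, adjusted p = 0.415). Ccl20, the chemokine that draws CCR6-bearing lymphocytes to the follicle epithelium, read 10.96, 10.97 and 11.19 on day 2 and 10.39, 9.53 and 10.25 on day 1 (0.98, interval 0.54 to 1.42, adjusted p = 0.0859). The difference was 0.95 for the annexin Anxa5 (interval 0.52 to 1.38, adjusted p = 0.0873), 0.79 for the NADPH oxidase Nox1 (0.28 to 1.30, 0.330) and 0.77 for the chemokine Ccl9 (0.40 to 1.15, 0.116). For these 4 genes the day 2 arrays were above the day 1 arrays. The receptor gene Tnfrsf11a read 10.16, 10.23 and 10.24 on day 2 and 10.43, 10.20 and 10.36 on day 1, a change of -0.12 with an interval of -0.35 to 0.11.

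Some genes for secreted antimicrobial and acute-phase proteins rose. Of 24 such genes 3 were called higher, Hamp, Wfdc17 and Wfdc18, and none lower, against 0.145% and 0.0552% of all genes. At an unadjusted p under 0.05, 11 were higher and 2 lower, against 4.11% and 2.86% of all genes, with a median change of 0.21. Without day 2 replicate 3, 7 were higher and 1 lower, and without day 1 replicate 3 only Hamp of the list was called. Hamp encodes hepcidin, the peptide hormone that limits iron export by ferroportin. It read 8.002, 7.68 and 7.87 on day 2, against 5.82, 5.80 and 5.97 on day 1 and 5.43 to 5.90 in controls. Day 1 and control arrays overlapped near the background, and day 2 stood apart, by 1.99 ± 0.20 (3.98-fold, adjusted p = 0.000659). The mean was 8.13 on day 3 and 6.17 on day 4. Wfdc17 and Wfdc18 belong to the whey acidic protein family of small secreted protease inhibitors. Wfdc17 read 9.28, 9.25 and 9.78 on day 2, against 8.02, 6.71 and 7.60 on day 1, a rise of 1.99 ± 0.29 (adjusted p = 0.0149). For Wfdc18 the values were 7.57, 7.81 and 7.74 on day 2, against 6.46, 6.30 and 6.34 on day 1, a rise of 1.34 ± 0.18 (adjusted p = 0.0106). Without single arrays the adjusted p reached 0.0723 for Wfdc17 (day 2 replicate 3 left out) and 0.0587 for Wfdc18 (day 1 replicate 3 left out).

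Defb6, a beta-defensin that is not in that list, read 7.16, 7.37 and 7.21 on day 2, against 6.32, 6.61 and 6.63 on day 1 (0.73 ± 0.10, adjusted p = 0.0147). Lcn2, Reg3a, Reg4 and Tfrc were named after their values were seen. Lcn2, whose product binds bacterial siderophores, read 9.28, 9.28 and 10.39 on day 2, against 8.27, 7.36 and 8.10 on day 1 (1.74 ± 0.38, adjusted p = 0.105). The lectin gene Reg3a differed by 1.99 ± 0.40 and Reg4 by -1.06 ± 0.29; these missed the threshold (adjusted p = 0.0842 and 0.239) and were called with the replicate block (adjusted p = 0.0365 and 0.0464). Among 23 genes of iron handling only Hamp was called, against 0.145% of all genes called higher. At an unadjusted p under 0.05, 7 of the 23 were higher and 1 lower, against 4.11% and 2.86% of all genes. With the replicate block the iron importer gene Slc11a2, named after its value was seen, was called too (0.48, adjusted p = 0.0441, and 0.130 without the block). The transferrin receptor gene Tfrc differed by 0.95 ± 0.20 (adjusted p = 0.0859). The 250 bases before the start of Hamp are shown because it was called under each of the 10 other settings in which it was tested; the match to TTCNNNGAA, in capitals, begins 97 bases before the start. It lies at chr7:30944030-30944279, minus strand, in RefSeq's GRCm38.p6, and 7.02% of all 32851 promoter windows hold that motif.
Hamp: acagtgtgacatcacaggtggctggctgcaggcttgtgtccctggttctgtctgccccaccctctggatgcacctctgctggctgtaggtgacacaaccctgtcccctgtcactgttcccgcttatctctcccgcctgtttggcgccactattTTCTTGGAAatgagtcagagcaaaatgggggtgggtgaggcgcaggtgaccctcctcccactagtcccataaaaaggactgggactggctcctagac

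**Figure D3:**
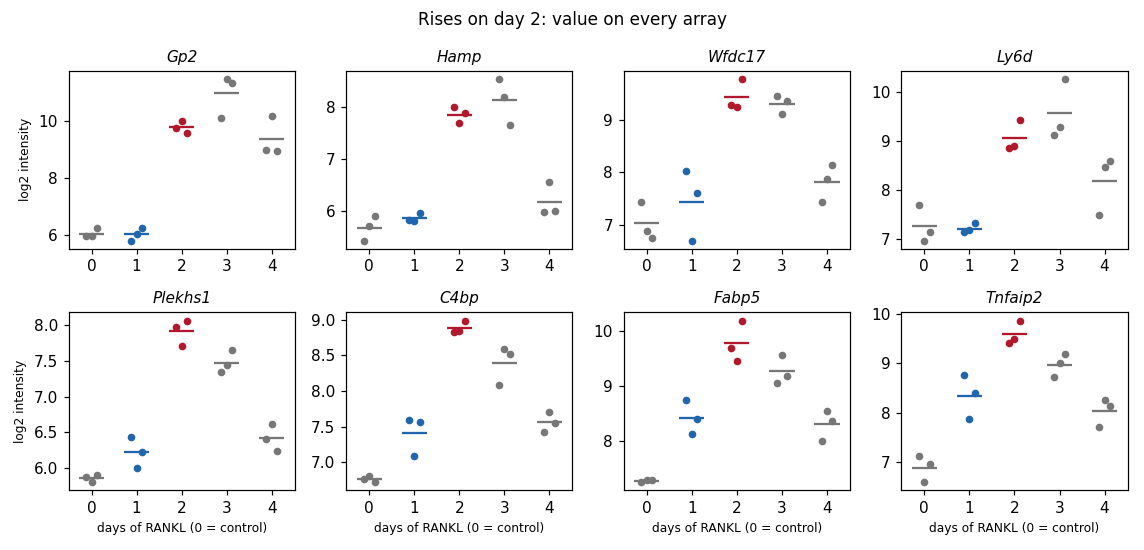
Log2 intensity on each array for 8 of the rises, by days of RANKL with controls at 0; points are arrays, lines are group means, day 2 is red and day 1 blue. In every panel the 3 day 2 arrays lie above the 3 day 1 arrays, and for Gp2, Hamp, Wfdc17 and Ly6d day 1 overlaps the controls.

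Plekhs1, C4bp, Clca2 and Ly6d, which belong to none of the lists, were also among the rises. Plekhs1, a pleckstrin-homology domain protein, had the smallest p of all genes, 8.37e-05 after adjustment. It read 7.98, 7.70 and 8.06 on day 2, against 6.43, 6.005 and 6.22 on day 1 and 5.80 to 5.91 in controls, so both days were above the controls and day 2 was above day 1. Its rise was 1.70 ± 0.13 (3.24-fold). C4bp, the fluid-phase inhibitor of complement C4b, read 8.83, 8.85 and 8.99 on day 2, against 7.60, 7.09 and 7.57 on day 1 and 6.72 to 6.81 in controls. It rose by 1.47 ± 0.14 (2.77-fold, adjusted p = 0.000474). Clca2, a calcium-activated chloride channel regulator, read 6.75, 6.62 and 6.99 on day 2, against 5.82, 5.85 and 5.87 on day 1 (0.94 ± 0.09, adjusted p = 0.000335). Ly6d, a GPI-anchored surface protein, read 8.85, 8.89 and 9.43 on day 2, against 7.13, 7.19 and 7.32 on day 1 and 6.97 to 7.69 in controls (1.85 ± 0.32, adjusted p = 0.0368). Its adjusted p reached 0.177 without day 2 replicate 3.

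Other rises were in Ccr3 (an eotaxin receptor), Csf2rb (the shared beta chain of the IL-3, IL-5 and GM-CSF receptors), Rasgrp3 (a Ras activator) and Ncf1 (the organizer subunit p47phox of the phagocyte NADPH oxidase). Ccr3 read 7.38, 7.47 and 7.60 on day 2, against 6.77, 6.21 and 6.34 on day 1 (1.04 ± 0.15, adjusted p = 0.0147). Csf2rb read 7.85, 7.71 and 8.04 on day 2, against 7.21, 6.99 and 7.27 on day 1 (0.71 ± 0.12, adjusted p = 0.0312). Rasgrp3 rose by 0.91 ± 0.14 (adjusted p = 0.0279). Ncf1 read 7.95, 7.94 and 8.20 on day 2, against 7.34, 7.52 and 7.48 on day 1, a rise of 0.58 ± 0.09 (adjusted p = 0.0180). All these day 2 arrays were above all day 1 arrays, by little for Ncf1. The other 14 subunits of the NADPH oxidases measured had no call, and 4 of the 15 were higher at an unadjusted p under 0.05, against 4.11% of all genes (2 without day 1 replicate 2 or without day 2 replicate 3). Of 25 myeloid and dendritic cell genes none was called, 5 were higher and none lower at an unadjusted p under 0.05 (4.11% and 2.86% of all genes), and the summed intensity was 4884 to 5085 on day 2, against 4363 to 4894 on day 1 and 4816 to 5772 in controls. The myeloid integrin gene Itgam, the member with the largest change, differed by 0.88 ± 0.16 (adjusted p = 0.0531, and 0.0419 with the replicate block). The eosinophil genes Epx, Prg2 and Il5ra, looked up after these values were seen, read 5.68 to 6.37 on day 2 and 5.66 to 6.56 on day 1, with changes of -0.08, -0.04 and -0.02, the last 2 of which changed sign without day 1 replicate 2. The part of leukocytes in these rises was not tested.

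Ncf1 is shown for its promoter, in which TTCNNNGAA and the interferon response repeat overlap, beginning 88 and 82 bases before the start (capitals). The window lies at chr5:134229626-134229875, minus strand, in RefSeq's GRCm38.p6. Of the 23 rises with a promoter in the table, 2 held TTCNNNGAA and 1 held the repeat, against 8.13% and 3.46% of 27025 genes with a promoter. Of the 10 falls with a promoter, 2 held TTCNNNGAA, Hsd3b7 and Nfkb2, and none held the repeat.
Ncf1: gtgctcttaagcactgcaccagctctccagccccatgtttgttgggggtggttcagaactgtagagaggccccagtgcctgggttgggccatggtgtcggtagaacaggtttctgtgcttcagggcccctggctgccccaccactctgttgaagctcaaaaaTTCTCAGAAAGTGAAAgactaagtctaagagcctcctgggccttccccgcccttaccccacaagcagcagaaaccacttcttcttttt

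Cxcl9, a chemokine that interferon gamma induces, was the second largest rise and the only called one among 34 interferon-stimulated genes. It read 10.92, 10.20 and 10.00 on day 2, against 8.85, 7.82 and 7.89 on day 1 and 7.77 to 9.08 in controls. The day 2 arrays were above all day 1 and control arrays, while day 1 lay within the control range, and the rise was 2.19 ± 0.39 (4.55-fold, adjusted p = 0.0436). The call was lost without 9 of the 15 arrays in turn, with an adjusted p of up to 0.187 (without day 2 replicate 1). At an unadjusted p under 0.05, 20 of the 34 were higher and none lower (4.11% and 2.86% of all genes). The change was positive in 33 of 34, against 8896 of 19938 over all genes, and its median was 0.66. In 24 of 34 all day 2 arrays lay above all day 1 arrays, against 5.41% of all genes. The unadjusted count was 13 without day 2 replicate 1 and 25 without day 4 replicate 2, and the median change ran from 0.59 to 0.74 over the left-out arrays. The median change of the list against controls was -0.39 on day 1, 0.17 on day 2 and -0.22 on day 3. For 18 of the 34 genes, all day 1 arrays lay below all controls, which 1696 of 19938 genes did. The summed intensity of the list was 21137 to 23149 on day 2, against 12832 to 15358 on day 1 and 16441 to 20145 in controls. Arrays of 1 group could differ widely in this list. Its mean log2 intensity was 8.93 on day 4 replicate 2, above every day 2 array (8.69 to 8.83), but 8.01 and 7.86 on the other day 4 arrays. Ifng itself read 6.75 to 6.88 on day 2 and 6.66 to 6.82 on day 1. The intraepithelial lymphocyte list, made of T cell and NK cell genes, had no call among 20 genes, 2 higher and none lower at an unadjusted p under 0.05 (4.11% and 2.86% of all genes), and a summed intensity of 9400 to 13487 on day 2, against 9516 to 11244 on day 1. The part of these cells in the shift was not tested. A further named member, chosen after its value was seen, is the GTPase gene Gbp7, which read 9.19, 8.69 and 8.71 on day 2 and 7.78, 7.12 and 7.13 on day 1 (1.52 ± 0.35, adjusted p = 0.126, and 0.0414 with the replicate block). The interferon response repeat was in 11 of the 23 members with a promoter in the table, against 3.46% of all genes with one. This count follows from the choice of list and does not depend on the values of these arrays. Of the called rises, 23 had a promoter in the table and 1 of these held the repeat.

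For 9 of the rises, all arrays of both days lay above the controls: Plekhs1, C4bp, Fabp5, Tnfaip2, Ncf1, Aqp4, Rassf2, Egln3 and Mmp28. Among all 19938 genes, 1212 lay above all controls on day 1 and 1612 on day 2. Aqp4, a water channel, read 8.83, 8.69 and 8.88 on day 2, against 8.14, 7.92 and 8.13 on day 1 and 7.37 to 7.45 in controls (0.74 ± 0.12, adjusted p = 0.0279). Rassf2, a Ras-association domain protein, rose by 0.63 ± 0.11 (adjusted p = 0.0446) and was not called with the replicate block. Egln3, an oxygen-sensing prolyl hydroxylase, and the metalloproteinase gene Mmp28, named after their values were seen, rose by 0.60 and 0.58. The cystatin gene Cst6 rose by 0.60 and lay within the controls on day 1. It was the only one called among 16 cathepsin and cystatin genes, against 0.145% of all genes called higher. At an unadjusted p under 0.05, 4 of the 16 were higher and none lower (4.11% and 2.86% of all genes).

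The falls each had their highest group mean on day 1, and Mal alone reached a log2 change of 1. With the values as deposited Rcan1, Tagln2 and Slc1a2 were called lower, and with median centring Slc1a2 alone. Mal, a raft-associated protein of apical membrane traffic, read 7.88, 8.06 and 8.61 on day 2, against 9.14, 9.24 and 9.64 on day 1 and 7.63 to 8.03 in controls. It fell by 1.16 ± 0.19 on the log2 scale (adjusted p = 0.0310), and day 2 overlapped the controls. Rcan1, a regulator of calcineurin, read 9.01, 8.99 and 9.20 on day 2, against 9.80, 9.96 and 9.81 on day 1 (-0.79 ± 0.12, adjusted p = 0.0180). Cdk6, a cell cycle kinase gene that is also in the stem cell list, read 9.03, 9.01 and 8.56 on day 2, against 9.70, 9.56 and 9.64 on day 1 (-0.77 ± 0.12, adjusted p = 0.0279). Of the 21 stem cell markers measured, 1 was called higher (Aqp4) and 1 lower (Cdk6), against 0.145% and 0.0552% of all genes. Their median change was 0.03, with 11 positive and 10 negative. Tagln2, an actin-bundling protein, read 10.40, 10.43 and 10.27 on day 2, against 11.04, 11.01 and 11.01 on day 1 and 9.93 to 10.12 in controls. Its fall of 0.65 ± 0.08 had an adjusted p of 0.00304. Slc1a2, a glutamate transporter, read 7.29, 7.40 and 7.24 on day 2, against 7.81, 7.94 and 7.97 on day 1 (-0.59 ± 0.08, adjusted p = 0.00870). Single left-out arrays took the adjusted p to 0.132 for Mal (day 2 replicate 1), 0.106 for Rcan1 (day 2 replicate 1) and 0.0965 for Cdk6 (day 1 replicate 1).

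**Figure D4:**
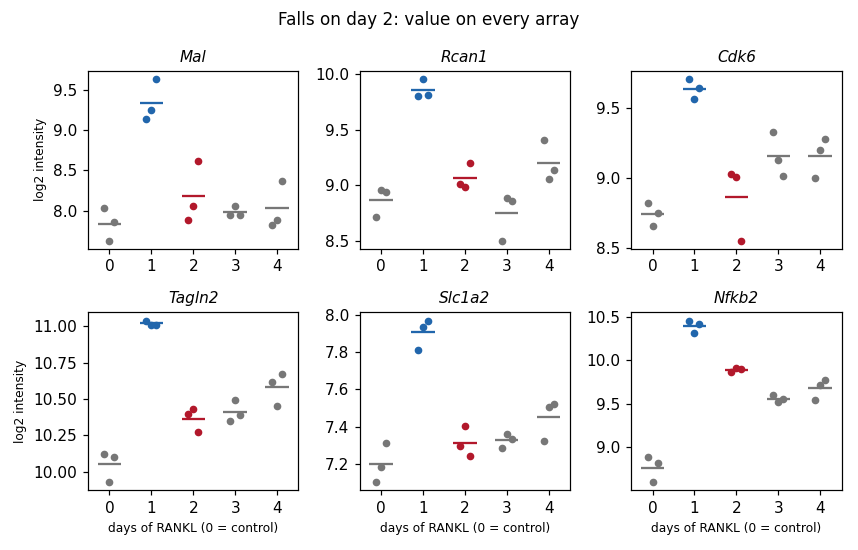
Log2 intensity on each array for 6 of the falls, by days of RANKL with controls at 0; points are arrays, lines are group means, day 2 is red and day 1 blue. All 3 day 1 arrays are the highest of each panel, and for Mal, Cdk6 and Slc1a2 the day 2 arrays overlap the controls.

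Nfkb2, the precursor of p52 in the alternative NF-kB pathway, read 9.87, 9.91 and 9.90 on day 2, against 10.46, 10.32 and 10.42 on day 1 and 8.59 to 8.89 in controls. The day 2 arrays were below day 1 and above all controls, and the fall was 0.51 ± 0.08 (adjusted p = 0.0289, reaching 0.126 without day 2 replicate 1). Its partner Relb read 9.09, 9.13 and 9.23 on day 2, against 9.39, 9.43 and 9.38 on day 1, a change of -0.25 with an interval of -0.41 to -0.10 (adjusted p = 0.265). Of 22 genes of the pathway and its targets, 1 was called lower and none higher; 5 were lower and 1 higher at an unadjusted p under 0.05, against 2.86% and 4.11% of all genes, and the median change was -0.12. With median centring 3 were lower and the median was -0.053. The day 2 arrays of 7 of the 22 lay below all day 1 arrays, against 4.63% of all genes. Among the 22, Chuk was matched only through a synonym, to the symbol Fbxo24, which may stand for another gene. Nfkb1 and Traf3 had no match and are not among them. The promoter of Nfkb2 is shown because it holds the motif of its own pathway (matches in capitals). The NF-kB consensus begins 39 and 38 bases before the start, as overlapping matches in 1 stretch, and again 11 bases before it. TTCNNNGAA begins 148 bases before the start. The table has 3 starts for the gene, and the window is that of the first, chr19:46304487-46304736, plus strand, GRCm38.p6. Of the 10 falls with a promoter in the table, 3 held the NF-kB consensus, Hsd3b7, Mal and Nfkb2, against 4.46% of genes with a promoter. It was also in 2 of the 23 rises with a promoter, Ccr3 and Defb6.
Nfkb2: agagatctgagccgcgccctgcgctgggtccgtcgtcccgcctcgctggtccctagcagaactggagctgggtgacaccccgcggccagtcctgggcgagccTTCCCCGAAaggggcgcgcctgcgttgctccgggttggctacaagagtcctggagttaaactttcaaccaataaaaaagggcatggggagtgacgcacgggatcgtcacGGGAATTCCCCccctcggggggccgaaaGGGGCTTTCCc

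The remaining falls were Reep1 (-0.62), Hsd3b7 (-0.59), Fam234b (-0.48), Bsdc1 (-0.44) and Nfib (-0.42), with adjusted p from 0.0289 to 0.0436. Hsd3b7 is an enzyme of bile acid synthesis and Reep1 shapes the endoplasmic reticulum. A second probe set of the transcription factor gene Nfib gave -0.19 ± 0.14, so its call rests on 1 probe set. On day 2, 7 of the 11 falls were above all controls, Cdk6, Mal and Slc1a2 overlapped them, and Fam234b was below. Among all 19938 genes, 1612 were above all controls on day 2 and 1883 below. These positions rest on array order alone. In the same fit Nfkb2, Bsdc1, Nfib and Tagln2 were called higher on day 2 than in controls. The difference was not called for Rcan1 (0.20, adjusted p = 0.604), Reep1 (0.20, 0.564), Hsd3b7 (0.24, 0.326) or Fam234b (-0.22, 0.248).

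Some rises were cases in which day 1 lay below the controls. Apol7a, a gene of the apolipoprotein L family, read 9.02, 8.69 and 9.06 on day 2, against 8.10, 7.72 and 7.87 on day 1 and 8.76 to 9.14 in controls (1.03 ± 0.17, adjusted p = 0.0300). Gda, guanine deaminase, read 11.53, 11.51 and 11.73 on day 2, against 10.64, 10.88 and 10.66 on day 1 and 10.90 to 11.44 in controls (0.86 ± 0.15, adjusted p = 0.0405). D5Ertd579e (0.80 ± 0.15, adjusted p = 0.0454) had the same position on day 1 and was not called with the replicate block. Ly75, Tmem253, Mocos and Smpd2, named after their values were seen, rose by 0.61, 0.58, 0.54 and 0.52 and also had day 1 below controls. Clca2, described above, and a predicted gene, left out by the naming rule, complete this group of 9. The group is set by array position alone. In the same fit, day 1 differed from controls by only -0.05 for Clca2, near the background, and by -0.41 for Gda. Neither difference was called (adjusted p = 0.869 and 0.188). Of the 29 rises, day 1 was above all controls for 9, overlapped them for 11 and was below for 9. Among all 19938 genes, day 1 was above all controls for 1212 and below for 1696. Of the 9 with day 1 below, 6 overlapped the controls on day 2. Smpd2 stayed below all controls on day 2, and Clca2 and Gda were above. For Gda the day 2 difference from controls was not called (adjusted p = 0.173). Among all genes, day 2 was above all controls for 1612 and below for 1883. These positions share the day 1 and day 2 arrays with the comparison that called the genes and are a description.

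The comparison of day 3 with controls shares no array with that of day 2 with day 1, although each gene's spread comes from all 15 arrays. Of the 29 rises, 17 were called higher and 2, Ly75 and Mocos, lower on day 3 relative to controls, against 1.72% and 1.24% of all genes. Their median change there was 0.69, against -0.01 over all genes. Gp2 was higher by 4.95 and Hamp by 2.45, while Cxcl9 differed by 0.69 with an adjusted p of 0.440. Of the 11 falls, Nfkb2 (0.80) and Tagln2 (0.36) were called higher and none lower.

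Of the lists in which no gene was called, 3 are described here, chosen after their values were seen. Of 26 cytosolic ribosomal protein genes, none was called and 14 were lower and none higher at an unadjusted p under 0.05 (2.86% and 4.11% of all genes), with a median change of -0.23; Rps3 (-0.42 ± 0.09) and Rpl6 (-0.40 ± 0.09) had the largest. The unadjusted count was 3 with arrays centred on their medians, 7 with the values as deposited and 7 without day 2 replicate 3. For 9 of these 26 genes all day 1 arrays lay above all controls, which 1212 of 19938 genes did. On day 2 none lay above all controls and 4 lay below. The median change of the ribosomal list against controls was 0.13 on day 1 and -0.06 on day 2. Of 26 genes of the endoplasmic reticulum stress response, none was called and 10 were higher and none lower (4.11% and 2.86% of all genes), with a median of 0.19; the largest were Ero1a (0.77 ± 0.15, adjusted p = 0.0655, and 0.0414 with the replicate block) and Creld2 (0.58 ± 0.16). The unadjusted count was 6 without day 1 replicate 2 or without day 2 replicate 1, and 14 with a median of 0.32 with arrays centred on their medians. All 9 Paneth cell products had a negative change, as did 11042 of 19938 genes, none of the 9 was called, and the median was -0.36. The largest change was in Pnliprp2, a lipase of the pancreatic family, which read 8.62, 8.61 and 7.58 on day 2, against 9.43, 9.23 and 9.50 on day 1 (-1.12 ± 0.28, adjusted p = 0.180). The median of the Paneth list was -0.23 without day 2 replicate 3 and -0.56 without day 1 replicate 2.

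**Figure D5:**
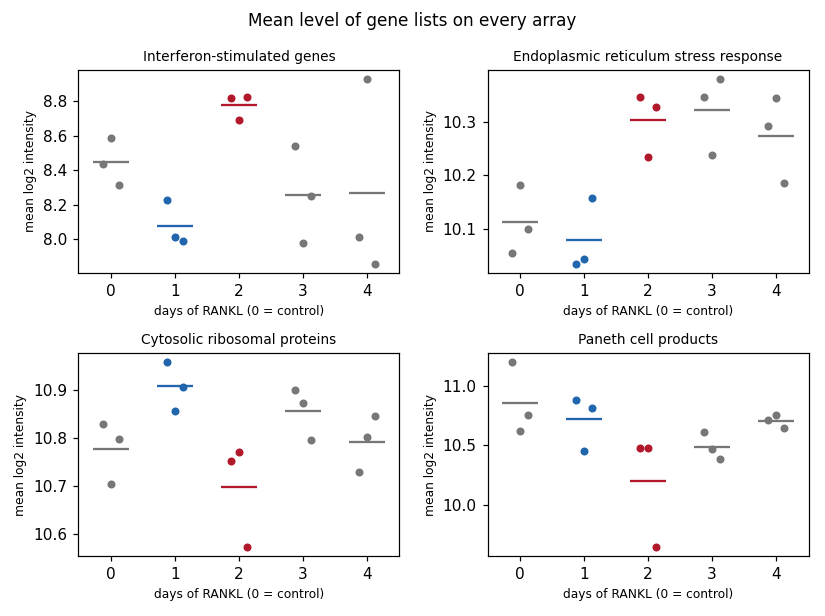
Mean log2 intensity of 4 gene lists on each array, by days of RANKL with controls at 0; points are arrays, lines are group means, day 2 is red and day 1 blue. The interferon-stimulated list is higher on every day 2 array than on every day 1 array, and day 2 replicate 3 is the lowest day 2 array in the ribosomal and Paneth lists. The highest array of the interferon-stimulated list is day 4 replicate 2, well above the other day 4 arrays.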

How the data were processed

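RNA of small-intestinal epithelium was measured on 15 Affymetrix arrays, and 6 of them are compared here. The deposited values are 1 linear intensity per probe set and array, for 28853 probe sets. The genome build is mm9, per the submitters' processing notes; how the authors summarised and normalized the intensity values is not given in the sources used here. They were taken to log2 (offset 0) and quantile normalized, since the array medians ranged over 0.18 against a limit of 0.1. Of the probe sets, 21789 had 1 symbol, 1621 had several and 5443 were not listed. The brightest probe set stood for each of 19938 genes.

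All 15 arrays entered 1 linear model of 5 group means, fitted in limma 3.58.1 under R 4.3.3 (10 residual and 3.49 prior degrees of freedom), without a block. P-values were two-sided and adjusted by Benjamini-Hochberg over all genes; genes were called under 0.05. The fit was tested on simulated data. The number of arrays limits the precision.

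The replicate numbers come from the labels. Deviations of same-numbered day 2 and day 1 arrays from their group means correlated at 0.38, 0.15 and 0.39, each over 0.1. A blocked fit was therefore run beside the main fit, whose p-values take no account of pairing. The labels do not say that a number is shared across days, and arrays of unlike number were not compared. The blocked fit is given where it changes the call of a gene named here, and further genes called only with the block are not named. The genes, the 38 lists and the tests were chosen with earlier results of these data known. Genes were named by a rule: the 20 largest rises and 15 largest falls among called genes, predicted genes left out, up to 5 called members of a list or 2 where none was called, and Gp2, Spib, Tnfaip2, Ccl9, Ccl20, Tnfrsf11a, Relb, Nfkb2, H2-M2, Anxa5 and Nox1. Others are marked as chosen after their values were seen. Promoters of 250 bases are RefSeq's (GRCm38.p6), searched on both strands. Alternatives tried were the deposited scaling, median centring, a pseudocount of 16, a filter on the dimmest 40% of genes, averaging or keeping all probe sets, a trended robust prior, array weights, the replicate block, the 6 arrays alone, unmoderated statistics and leaving out each array.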

Additional observations from a re-analysis of the deposited data

How the results depend on the processing

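The number of called genes, 40 with 29 higher and 11 lower, depended on the processing. It was 17 (14 higher, 3 lower) with the values as deposited, 19 (18 and 1) with arrays centred on their medians, 5 (5 and 0) in a fit of the 6 arrays alone and 7 (5 and 2) with ordinary statistics. In the fit of the 6 arrays, limma gave 679 genes higher and 374 lower at an unadjusted p under 0.05. Array weights gave 711 (247 and 464), where the estimate of the weights stopped before its tolerance was reached. The replicate block gave 69 (50 and 19); the pairing is described with the methods. Leaving out each array gave 7 to 53 called genes, 6 to 39 higher and 1 to 14 lower. The count of rises called higher on day 3 relative to controls was 15 to 18 without single arrays. The alternatives were run on 68 named genes. Directions held where a gene was tested, except for 4 uncalled ones: Spib was -0.019 without day 1 replicate 2 and -0.013 without day 2 replicate 3, over a range of -0.019 to 0.28 without single arrays, Tnfrsf11a was 0.026 with median centring, and without day 1 replicate 2 Prg2 was 0.048 (range -0.11 to 0.048 without single arrays) and Il5ra 0.0037 (range -0.065 to 0.0037). The median change of all genes moved to -0.04 with the values as deposited and to 0.01 with median centring. Genes near the background, such as Hamp, Gp2 and Clca2 on day 1, have folds that rest on values little above it. The causes of these changes were not tested beyond the smaller number of arrays where arrays were left out.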

Other observations

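The transporter genes for sugars and monocarboxylates were all higher on day 2 than on day 1 by value, 16 of 16, against 8896 of 19938 over all genes. Their median change was 0.26. None was called and 3 had an unadjusted p under 0.05 (4.11% of all genes were higher at that level). The median was 0.068 without day 1 replicate 1 and 0.45 without day 1 replicate 2. With median centring, without further scaling or with the trended robust prior 1 member was called. Without the dimmest 40% of genes 2 were called, and with array weights 3. Leaving out day 3 replicate 1, day 3 replicate 3 or day 4 replicate 2 also gave 1 called member. Among the 16 transporters, the glucose transporter Slc2a6 read 10.43, 10.46 and 10.93 on day 2, against 9.71, 9.77 and 9.56 on day 1 and 7.71 to 8.04 in controls (adjusted p = 0.0547), and the lactate exporter Slc16a3 read 9.60, 9.48 and 9.73 on day 2, against 8.40, 8.97 and 8.79 on day 1 (adjusted p = 0.0655). Oxidative phosphorylation subunits had positive changes in 25 of 27 genes, against 8896 of 19938 over all genes, with a median of 0.10. None was called, and 5 were higher at an unadjusted p under 0.05, against 4.11% of all genes. That count was 2 without day 1 replicate 2 or without any one of the day 2 arrays, and 10 with a median of 0.22 with median centring. For 14 of the 27 subunits all day 1 arrays lay below all controls, which 1696 of 19938 genes did. On day 2 none lay above all controls and 4 lay below. The median change of these subunits against controls was -0.18 on day 1 and -0.05 on day 2. Both lists were described after their values were seen.

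In the fit of all probe sets, 6 called probe sets have no single gene name in the annotation. The largest, 10429564, differed by 3.72 (adjusted p = 0.0138), close in size to Gp2, and 10385504 differed by 2.25 (adjusted p = 0.0474).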
